A study of Mus musculus with 10 samples.

Results

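The 10 genes described here encode the apolipoproteins of liver-made plasma lipoproteins and the transfer protein that loads lipid onto them: Apoa1, Apoa2, Apoa4, Apoa5, Apob, Apoc1, Apoc3, Apoe, Apom and Mttp. They were taken by symbol from the tables of molecule counts, which list them in lower case (apoa1, apoa2, apoa4, apoa5, apob, apoc1, apoc3, apoe, apom and mttp) among 14812 gene entries. The study placed single mouse hepatocytes, the main cells of the liver parenchyma, along the lobule and around the day. All libraries came from 3-month-old male C57BL/6 mice on chow ad libitum, anaesthetised with ketamine and xylazine, whose hepatocytes were freed by collagenase perfusion, purified on Percoll and processed with version 2 of the 10x Chromium 3' kit. The groups differed in zeitgeber time (ZT, hours in the light-dark cycle): ZT0 and ZT12 had 3 libraries each, lettered A to C, and ZT6 and ZT18 had 2 each, lettered A and B. No group carried a mutation or a drug other than the anaesthetic. The labels do not say whether each library came from a separate mouse, so p-values measure the spread between libraries, which may be technical in part.

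Lipoproteins carry triglyceride and cholesterol through blood in particles coated with phospholipid and apolipoproteins. In hepatocytes, microsomal triglyceride transfer protein (Mttp) loads lipid onto growing apolipoprotein B (Apob), and the resulting very-low-density lipoprotein is secreted. Apoa1 and Apoa2 are the main proteins of high-density lipoprotein, Apoc1 and Apoc3 slow lipolysis and clearance, Apoa5 promotes lipolysis, Apoe is the ligand for remnant receptors, and Apom carries sphingosine-1-phosphate. Blood enters the lobule at the portal vein and leaves at the central vein, and hepatocyte functions differ between these ends. Apoa1, Apoc3, Apoa4 and Apoa5 are neighbours in the genome, as are Apoe and Apoc1.

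The libraries held 18378 cells and 1454623 to 7144803 molecules (UMIs, unique molecular identifiers) each, and a cell held 1048 to 10001 UMIs. Mitochondrially encoded genes took 12.9% (ZT12C) to 24.3% (ZT12A) of a library's UMIs. Levels are in CPM, UMI counts brought to a common library size with edgeR's TMM factors. Sums of cell type markers, here and below, were scaled by total UMIs alone, without these factors. Hepatocyte markers summed to 39277 to 70108 CPM. The 9 macrophage markers summed to at most 6.63 CPM, with Clec4f, C1qa, C1qb, C1qc and Csf1r at 0 UMIs in every library. The 6 lymphocyte markers with an entry summed to at most 0.314 CPM, with Cd3e, Cd79a, Cd79b and Nkg7 at 0 UMIs in every library. The 8 endothelial markers summed to 52.9 to 89.3 CPM, with Clec4g and Ptprb at 0 UMIs, and the 5 measured erythroid markers to 72.2 to 361 CPM, with the highest sum at ZT18.

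Cells of each library were ordered by 16 landmark genes, 8 periportal and 8 pericentral, none of which is described here, and cut into 3 equal zones (pericentral, middle, periportal) or 8 equal layers. Counts were summed over the cells of a library and zone before any test. A 3' UMI counts a molecule once whatever its length, so levels in CPM were not divided by transcript length.

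Promoters are shown for 3 genes of the chromosome 9 cluster, which were higher periportally, and for Apoa2, which was higher pericentrally. RefSeq promoter entries (GRCm38.p6) matched 8 of the 10 genes, all but Apoc1 and Apoc3. Each sequence is the 250 bases before the annotated start, on the plus strand and read 5′ to 3′, with matches to the searched motifs in capitals.

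Apoa1, chr9:46228380-46228629: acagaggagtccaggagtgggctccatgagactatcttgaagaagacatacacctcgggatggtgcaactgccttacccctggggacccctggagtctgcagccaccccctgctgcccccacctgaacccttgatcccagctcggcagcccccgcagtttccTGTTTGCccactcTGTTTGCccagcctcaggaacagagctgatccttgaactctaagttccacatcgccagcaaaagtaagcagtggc
Apoa4, chr9:46240594-46240843: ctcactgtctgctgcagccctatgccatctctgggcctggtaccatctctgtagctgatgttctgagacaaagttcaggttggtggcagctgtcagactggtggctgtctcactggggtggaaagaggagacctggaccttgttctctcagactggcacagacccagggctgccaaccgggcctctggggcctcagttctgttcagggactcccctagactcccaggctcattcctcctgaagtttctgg
Apoa5, chr9:46268358-46268607: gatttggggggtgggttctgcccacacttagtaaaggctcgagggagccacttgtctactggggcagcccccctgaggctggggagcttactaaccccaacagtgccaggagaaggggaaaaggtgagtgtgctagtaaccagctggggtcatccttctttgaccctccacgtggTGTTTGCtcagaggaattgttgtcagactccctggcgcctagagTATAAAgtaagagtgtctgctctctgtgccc
Apoa2, chr1:171221314-171221563: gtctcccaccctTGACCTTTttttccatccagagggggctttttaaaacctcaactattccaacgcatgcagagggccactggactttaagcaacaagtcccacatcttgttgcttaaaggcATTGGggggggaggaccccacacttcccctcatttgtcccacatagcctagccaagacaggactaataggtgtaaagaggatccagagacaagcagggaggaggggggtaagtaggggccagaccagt

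The core of the forkhead factor FOXA motif, TGTTTGC on either strand, was found at bases 88 to 82 and 75 to 69 before the Apoa1 start. It was also found at bases 75 to 69 before the first Apoa5 start and at 121 to 115 before Apob, and in 4.3% of the 32851 promoters of the same length. Apoa5 had TATAAA at bases 31 to 26, a TATA box core read on the coding strand that 7.59% of promoters held. TATAAA also lay at bases 60 to 55 before Apob, 96 to 91 before the second Apoe start and 212 to 207 before the second Apoa2 start. The printed Apoa2 window held AAAGGTCA (1.34% of promoters, both strands) and CCAAT (33.8%, both strands). TGACGT was found in Mttp (6.47% of promoters, both strands) and GTTAAT before the third Apoe start (6.43%, both strands). CAAAGTCCA, searched on both strands and present in 0.384% of promoters, was in none of these windows. Those of Apoa4, of Apom and of the first Apoe start held no searched motif. A match describes letters in this window and not a bound site.

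Position in the lobule separated most of these genes. By edgeR's quasi-likelihood test with library as a block and Benjamini-Hochberg adjustment over 8894 genes, 9 of the 10 differed between the outer zones at an adjusted p under 0.05, beside 27% of all genes tested (35.9% had an unadjusted p under 0.05). Apoa4, Apoa5, Apoa1, Apom, Apoc3, Apob and Apoe were higher periportally (7 of 10, beside 13% of all genes), and Apoa2 and Apoc1 were higher pericentrally (2 of 10, beside 14.1%). Mttp was at 164 ± 33.5 CPM pericentrally and 161 ± 23.2 periportally (SD, n = 10). The median size of the zone difference was 0.45 (log2) over the 10 genes and 0.19 over all genes tested. Hepatocyte markers also rose, summing to 41289 ± 8844 CPM pericentrally and 68982 ± 10164 periportally (SD, n = 10). Depth and mitochondrial share moved with zone: the mitochondrial share was higher periportally in 10 of 10 libraries, and the median cell held more UMIs periportally in 7 of 10. Their part in the zone differences was not tested.

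Apoa4, an apolipoprotein of triglyceride-rich and high-density particles that the intestine also makes, had the steepest gradient of the 10. Its pericentral and periportal levels were 61.5 and 272 CPM in ZT0A, 58.5 and 187 in ZT0B, 19.6 and 162 in ZT0C, 49.6 and 176 in ZT6A, and 28.7 and 165 in ZT6B. They were 48.9 and 175 CPM in ZT12A, 54.5 and 149.5 in ZT12B, 16.1 and 146.5 in ZT12C, 56.0 and 194 in ZT18A, and 37.8 and 145 in ZT18B. The highest pericentral value lay below the lowest periportal value, so the zones did not overlap. The fold change was 2.03 ± 0.11 (log2, SE; adjusted p = 8.4e-20 by edgeR), and 4.28% of the genes called in this test differed by as much or more. The mean rose from 34.1 ± 13.2 CPM in layer 1 to 212 ± 51.4 in layer 8 (SD, n = 10), a ratio of 6.20 between those means, and 9 of 10 libraries peaked in layer 7 or 8. The share of cells with an Apoa4 UMI, each cell thinned to 1000 UMIs, was 4.34% ± 1.40 pericentrally, 8.49% ± 2.85 in the middle and 14.0% ± 1.69 periportally. Unthinned, these shares were 9.09%, 16.2% and 26.5%. No other cell type was set apart in these tables, so a share in cells lacking Apoa4 could not be set beside them. Cholangiocyte markers, the bile duct cells of the portal tract, summed to 18.2 ± 15.2 CPM periportally and 4.65 ± 4.57 pericentrally, and their part in the gradient was not tested. Fabp2, the 1 measured gene of 5 enterocyte markers, was at 172 ± 45.1 CPM pericentrally and 96.5 ± 22.2 periportally. With 1 marker measured, a part of intestinal RNA in the Apoa4 levels was not tested.

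Apoa5, which enhances lipolysis by lipoprotein lipase, rose from 750 ± 242 CPM pericentrally to 1291 ± 230 periportally (SD, n = 10), higher in 10 of 10 libraries. Its fold change was 0.83 ± 0.06 (log2, SE; adjusted p = 8.9e-16 by edgeR), and single libraries ranged from 0.50 to 1.41. The layer means rose at each step from 610 CPM in layer 1 to 1333 in layer 8, and like Apoa4 it peaked in layer 7 or 8 in 9 of 10 libraries.

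Apoa1, the main structural protein of high-density lipoprotein, was at 3941 ± 2140 CPM pericentrally and 6216 ± 2052 periportally and was higher periportally in 10 of 10 libraries. The fold change was 0.74 ± 0.07 (log2, SE; adjusted p = 9.6e-12 by edgeR). Single libraries ranged from 0.15 in ZT0A and ZT12B to 1.34 in ZT12A. The layer means rose from 3356 CPM in layer 1 to 6341 in layer 6 and were 6201 in layer 8. Single libraries differed, with 5 of 10 peaking in layer 7 or 8 and 5 in layers 3 to 6. Apom, too, had its highest mean in layer 6 (354 CPM), and 4 of 10 libraries peaked in layer 7 or 8. It was at 243 ± 148 CPM pericentrally and 342 ± 121 periportally, with a fold change of 0.55 ± 0.08 (log2, SE; adjusted p = 2.2e-07 by edgeR). In the test of the middle zone against the mean of the outer zones, 0 of 10 genes passed by edgeR (0.585% of all genes did). By DESeq2 0 of 10 passed (36 of 8894 genes did). Apoa1, Apoa5 and Apom had an unadjusted p under 0.05 by edgeR there, beside 8.15% of all genes. Without the filter on low counts Apoa1 passed, at an adjusted p of 0.00061 by edgeR, and 119 genes in all did.

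Apoc3, an inhibitor of lipolysis and of remnant uptake, was at 3697 ± 1909 CPM pericentrally and 5052 ± 2045 periportally, with a fold change of 0.50 ± 0.07 (log2, SE; adjusted p = 4.0e-07 by edgeR). It was higher periportally in 9 of 10 libraries, and ZT18B was the exception at 4341 and 4274 CPM. The per-library difference averaged 0.40 ± 0.20 at ZT0 (SD, n = 3), 0.50 ± 0.32 at ZT6 (n = 2), 0.91 ± 0.50 at ZT12 (n = 3) and 0.05 ± 0.11 at ZT18 (n = 2). In the test of a zone-dependent 24-h rhythm, 0 of the 10 genes passed by edgeR, beside 0.0337% of all genes. By DESeq2 0 of 8907 genes passed. Apoc3 and Apoc1 had an unadjusted p under 0.05 there (6.07% of all genes), with adjusted p of 0.68 and 0.79 by edgeR. Without the filter on low counts Apoc3 passed at an adjusted p of 0.035 by edgeR, and 38 genes in all did.

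Apoc1 and Apoa2 ran against the others. Apoc1, an inhibitor of lipoprotein receptors, was at 14138 ± 4009 CPM pericentrally and 10899 ± 3753 periportally, a fold change of -0.40 ± 0.06 (log2, SE; adjusted p = 1.4e-06 by edgeR). It was higher pericentrally in 9 of 10 libraries. ZT12A was the exception, at 10000 CPM pericentrally and 11116 periportally. The per-library difference averaged -0.33 ± 0.13 at ZT0 (SD, n = 3), -0.30 ± 0.25 at ZT6 (n = 2), -0.24 ± 0.39 at ZT12 (n = 3) and -0.82 ± 0.02 at ZT18 (n = 2), and the zone-dependent rhythm did not pass. At ZT18 the pericentral levels were 13429 and 14447 CPM and the periportal levels 7533 and 8265. Apoa2, the second protein of high-density lipoprotein, was at 17912 ± 11999 CPM pericentrally and 13612 ± 7664 periportally, with a fold change of -0.38 ± 0.07 (log2, SE; adjusted p = 7.0e-06 by edgeR) and higher pericentral levels in 9 of 10 libraries. Its layer means fell at each step from 18501 CPM in layer 1 to 13336 in layer 8. Apoa1 and Apoa2, which share the same particles, therefore had gradients of opposite sign. Across cells, the mitochondrial share correlated with the Apoc1 level at r from -0.64 to -0.22 in the 10 libraries. It did so at -0.57 to 0.15 for Apoa2, and at -0.44 to -0.06 for Apoc3, which was higher periportally. No p is given because the share and the level have the same denominator, and a part of this share in the gradients was not tested.

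Apob, the structural protein of very-low-density lipoprotein, and Apoe had the smallest differences that passed. Apob was at 1620 ± 309 CPM pericentrally and 1812 ± 287 periportally, with a fold change of 0.17 ± 0.04 (log2, SE; adjusted p = 0.0020 by edgeR), higher periportally in 9 of 10 libraries. Apoe was at 11098 ± 2644 and 12171 ± 3046 CPM, with a fold change of 0.14 ± 0.05 (log2, SE; adjusted p = 0.023 by edgeR), higher periportally in 8 of 10. When libraries were scaled by size alone, neither passed, with 0.07 (adjusted p = 0.23) for Apob and 0.04 (adjusted p = 0.55) for Apoe by edgeR. The Apoe call was lost in 10 of 24 alternatives, among them leaving out ZT0C, ZT6A, ZT6B, ZT12A or ZT18B alone (adjusted p from 0.053 to 0.076 by edgeR). For Mttp the fold change was -0.01 with an interval of -0.13 to 0.11 (log2, 95%; adjusted p = 0.93 by edgeR), and 5 of 10 libraries were higher periportally. Mttp was found in 15.3% of pericentral and 14.5% of periportal cells thinned to 1000 UMIs.

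**Figure D1:**
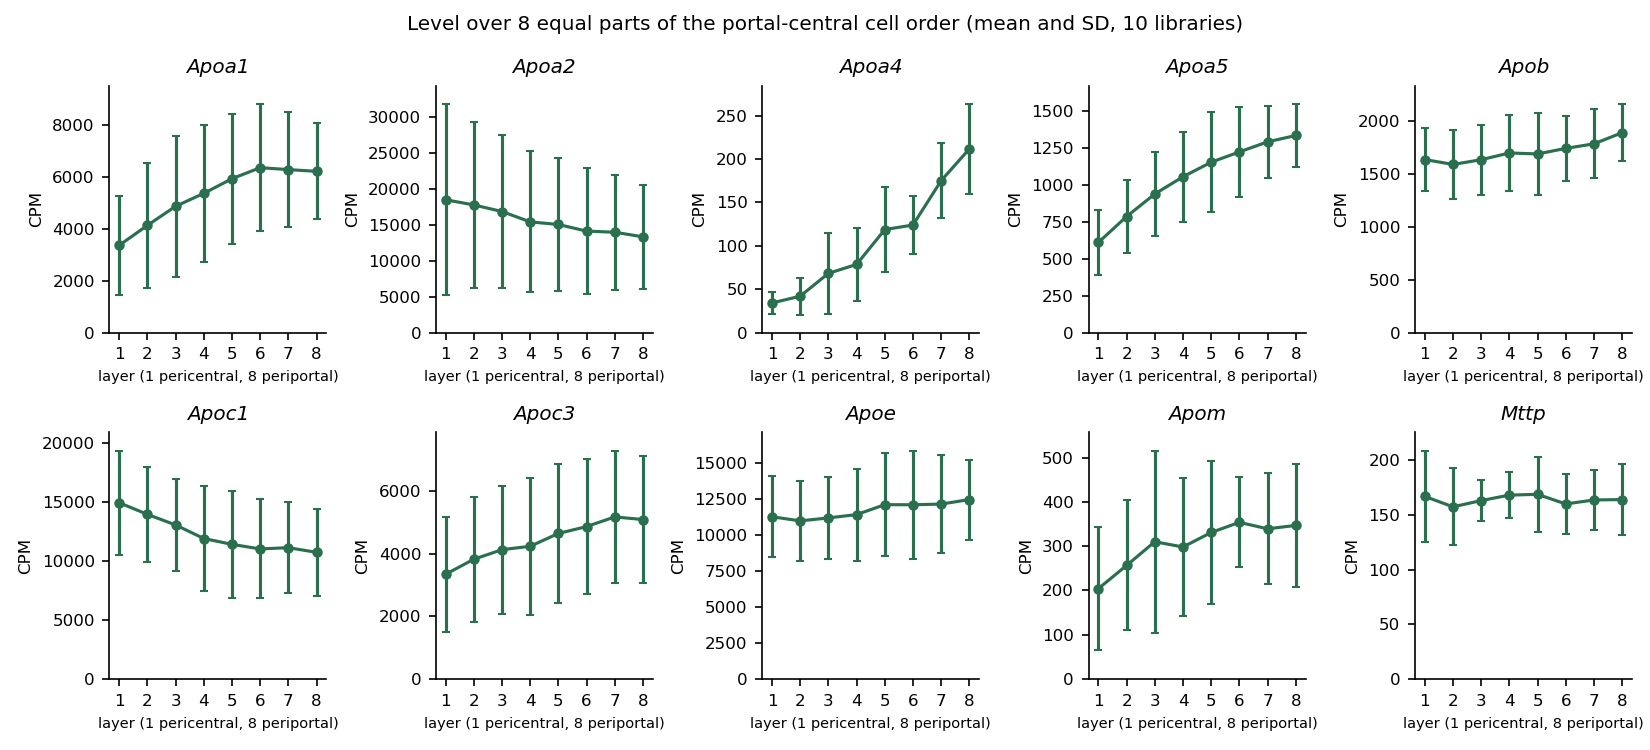
Level of each gene in CPM (vertical axes, from 0) over 8 equal layers of the cell order from pericentral (1) to periportal (8), with points for the mean and bars for the SD over 10 libraries. Apoa4 climbs from 34.1 to 212 CPM, Apoa1 and Apom are highest in layer 6, Apoa2 and Apoc1 fall, and Mttp stays between layer means that differ by a ratio of 1.07.

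**Figure D2:**
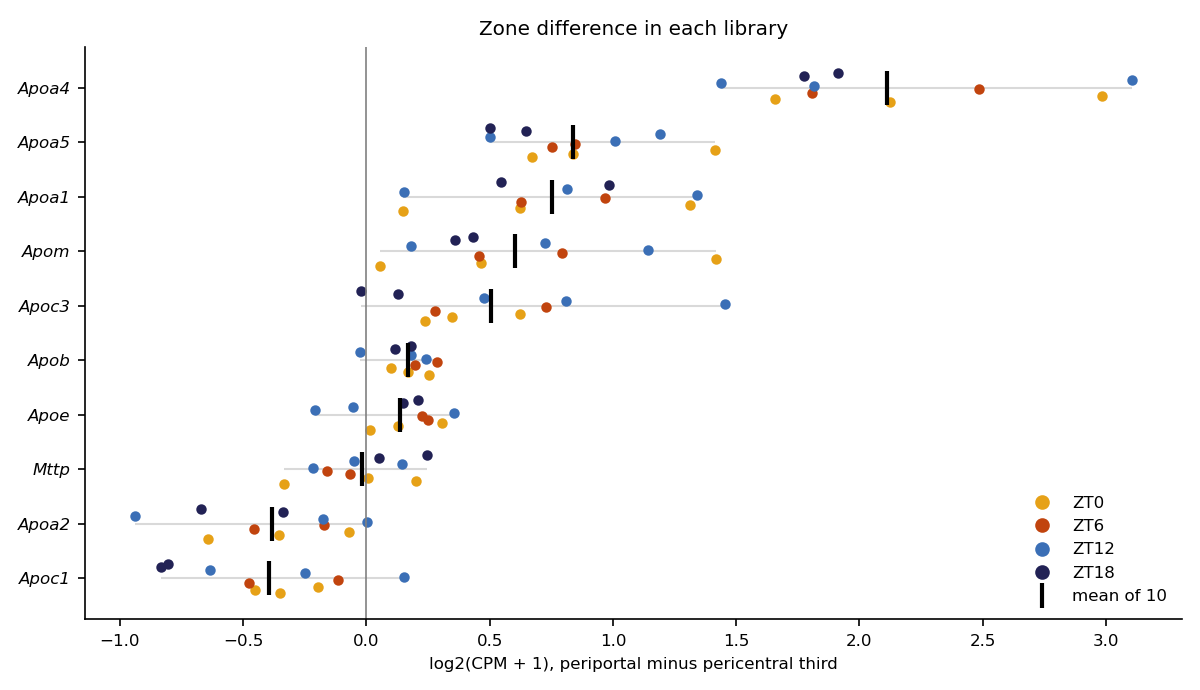
Difference in log2(CPM + 1) between the periportal and the pericentral zone (horizontal axis) for each gene, with 1 point per library coloured by time and a bar at the mean of 10. All 10 points of Apoa4, Apoa5, Apoa1 and Apom lie above 0, and 9 of the 10 points of Apoc1 and of Apoa2 lie below it.

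The gene neighbourhoods were set beside these gradients. Apoa1 (chr9:46228630-46230469, plus strand), Apoc3 (chr9:46233050-46235636, minus), Apoa4 (chr9:46240844-46243458, plus) and Apoa5 (chr9:46268608-46271921, plus) lie within 43.3 kb, and all 4 were higher periportally, by 0.50 to 2.03 (log2). The genes within 50 kb, chosen after values had been seen, gave smaller values: Sik3, a kinase gene, differed by 0.10 ± 0.10 (log2, SE; adjusted p = 0.55 by edgeR) and Zpr1 by 0.22 ± 0.11 (adjusted p = 0.16 by edgeR). On chromosome 7, Apoc1 (chr7:19689480-19692659, minus) and Apoe (chr7:19696244-19701310, minus) lie within 11.8 kb and differed in opposite directions. Their neighbour Apoc4, another apolipoprotein gene, was higher pericentrally like Apoc1, at -0.23 ± 0.06 (adjusted p = 0.0034 by edgeR). Clptm1, on the far side of Apoc4, was higher periportally at 0.28 ± 0.07 (adjusted p = 0.0036 by edgeR), and Tomm40, beside Apoe, differed by 0.11 ± 0.12 (adjusted p = 0.58 by edgeR). Apoc2 and Bud13 had 114 and 90 UMIs in all and were not tested. The promoter sequences printed for Apoa1, Apoa4 and Apoa5 belong to the chromosome 9 group, and only those of Apoa1 and Apoa5 held the FOXA core.

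**Figure D3:**
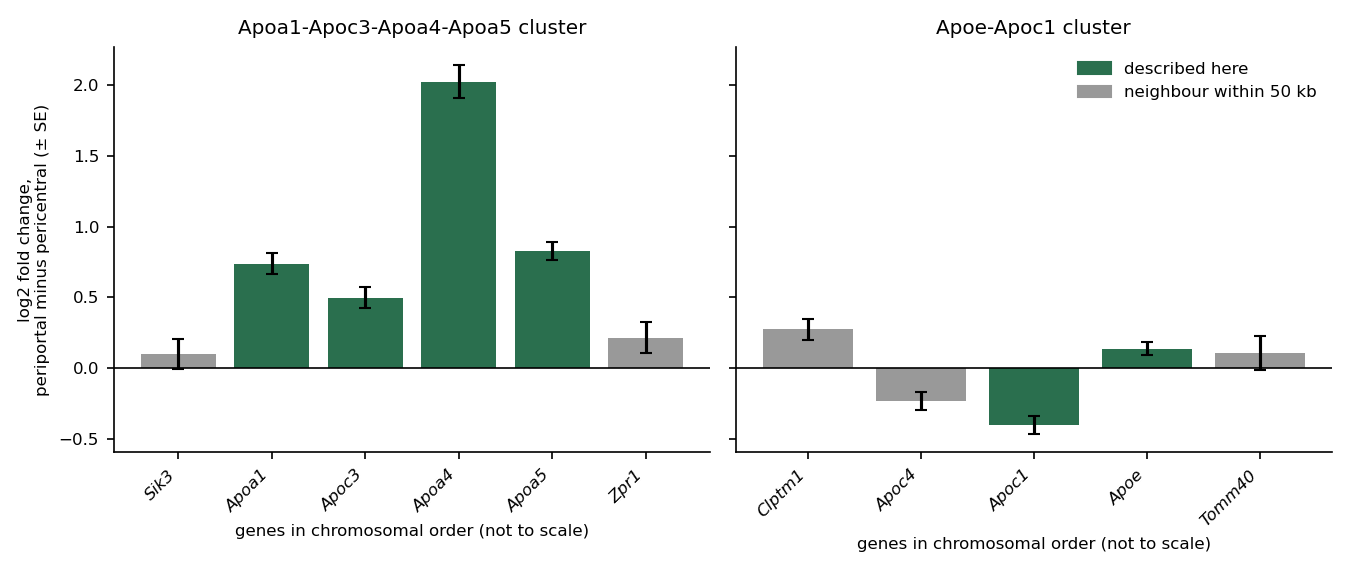
Fitted log2 fold change between the periportal and pericentral zones (vertical axis, bars with SE) for the genes of both clusters in chromosomal order, green for the genes described here and grey for tested neighbours within 50 kb. The 4 green bars of the left panel are all above 0, while Apoc1 (-0.40) and Apoe (0.14) point in opposite directions.

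None of the 10 genes passed a test of time of day with edgeR. In the test of a 24-h rhythm, 0 of 10 passed at an adjusted p under 0.05 by edgeR's quasi-likelihood test, beside 5.14% of 8908 genes. By DESeq2 0 of 10 passed, beside 792 of 8908 genes. Apoa1 had an unadjusted p under 0.05 by edgeR (20.4% of all genes did), and 5 of the 10 did by DESeq2 (Apoa1, Apoa2, Apoc1, Apoc3 and Apom), beside 20.4% of all genes by DESeq2. In the test of any difference among the 4 times, 0 of 10 passed by edgeR, beside 6.58% of all genes, and none had an unadjusted p under 0.05 by edgeR (22.5% of all genes). By DESeq2, Apoa2 alone passed that test, at an adjusted p of 0.047, beside 783 of 8908 genes by DESeq2. The fitted amplitude, the height of the 24-h curve above its mean, had a median of 0.36 (log2) over the 10 genes and 0.25 over all genes tested. It ran from 0.17 for Mttp to 0.66 for Apoa2, while the rhythmic genes had a median of 0.86 and a smallest value of 0.41. Without ZT0A the amplitude was 0.46 for Apoa1 (0.56 with it), 0.49 for Apoa2 (0.66), 0.35 for Apoc1 (0.41), 0.27 for Apoc3 (0.47) and 0.18 for Apom (0.43).

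Apoa1 and Apoa2 had their highest mean level at ZT0 and their lowest at ZT18. Apoa1 was at 10070, 5007 and 5244 CPM in the ZT0 libraries, 5741 and 6693 in those of ZT6, 2932, 5372 and 4610 in those of ZT12, and 3220 and 3447 in those of ZT18. Both ZT18 libraries lay below both ZT6 libraries, while ZT0 and ZT12 overlapped and ZT0A stood apart. The fold change from ZT6 to ZT18 was -0.90 ± 0.41 (log2, SE; adjusted p = 0.25 by edgeR), and that from ZT0 to ZT12 -0.65 ± 0.33 (adjusted p = 0.37 by edgeR). Apoa2 was at 39767, 15774 and 12288 CPM in the ZT0 libraries, 12835 and 21434 in those of ZT6, 12180.5, 15198 and 8722.5 in those of ZT12, and 8192 and 9317 in those of ZT18. Its ZT0A value was the highest of 10 libraries and its 2 ZT18 values were the lowest and the third lowest. The fold change from ZT6 to ZT18 was -0.97 ± 0.54 (log2, SE; adjusted p = 0.35 by edgeR), and -0.55 without ZT6B.

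Apom was at 660, 297 and 243 CPM in the ZT0 libraries, 288 and 317 in those of ZT6, 180, 301 and 189 in those of ZT12, and 261 and 274 in those of ZT18. Apart from ZT0A, all libraries lay between 180 and 317 CPM. The fold change from ZT0 to ZT12 was -0.84 ± 0.33 (log2, SE; adjusted p = 0.23 by edgeR). Apoc3 was at 9212, 4242 and 3164 CPM in the ZT0 libraries, 4457 and 5850 in those of ZT6, 3138, 3881 and 2318 in those of ZT12, and 3471 and 4223 in those of ZT18, and its fold change from ZT0 to ZT12 was -0.83 ± 0.37 (log2, SE; adjusted p = 0.30 by edgeR). Between ZT12 and ZT0, 0 of 10 genes passed by edgeR (3.44% of all genes) and 0 by DESeq2 (367 of 8908 genes). Apoc3 and Apom had an unadjusted p under 0.05 by edgeR (15.5% of all genes). By DESeq2 4 genes did (Apoa1, Apoa2, Apoc3 and Apom, beside 12.9% of all genes by DESeq2). Between ZT18 and ZT6, 0 of 10 passed by edgeR (3.79% of all genes) and 0 by DESeq2 (373 of 8908 genes). Apoa1 had an unadjusted p under 0.05 by edgeR (19.6%). By DESeq2 4 genes did (Apoa1, Apoa2, Apob and Apoc1, beside 15.8% of all genes by DESeq2).

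The fall from ZT0 to ZT12 lay mostly between the libraries lettered A. Between them, log2(CPM + 1) differed by -1.87 for Apom, -1.78 for Apoa1, -1.71 for Apoa2, -1.55 for Apoc3 and -1.45 for Apoe. Between the B libraries the same genes differed by 0.02, 0.10, -0.05, -0.13 and -0.26, and between the C libraries by -0.36, -0.19, -0.49, -0.45 and -0.22. With ZT0A and ZT12A both left out, a check chosen after seeing the data, the fitted change was -0.14 for Apom, -0.04 for Apoa1, -0.23 for Apoa2, -0.26 for Apoc3 and -0.24 for Apoe (log2; adjusted p from 0.82 to 0.98 by edgeR). The 10 genes together took 8.41% of the UMIs of ZT0A, 4.85% to 4.97% of those of ZT0B and ZT0C, and 3.70% of those of ZT12A.

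Apob, Apoa5 and Mttp did not share this order. Apob was at 1368, 1697 and 1939 CPM in the ZT0 libraries, 1491 and 1542 in those of ZT6, 1447, 1450 and 1793 in those of ZT12, and 2224 and 2125 in those of ZT18. Both ZT18 values exceeded all others, and the fold change from ZT6 to ZT18 was 0.52 ± 0.28 (log2, SE; adjusted p = 0.34 by edgeR). Apoa5 was at 860, 1014 and 619 CPM in the ZT0 libraries, 1098 and 938 in those of ZT6, 842, 1337 and 1001 in those of ZT12, and 1453 and 1279 in those of ZT18, with a fold change from ZT6 to ZT18 of 0.42 ± 0.31 (log2, SE; adjusted p = 0.49 by edgeR). Mttp ranged from 130 to 215 CPM over 10 libraries, a ratio of 1.66, close to the 1.63 of Apob. Apoa4 had time means between 93.5 ± 15.5 CPM at ZT12 (SD, n = 3) and 120 ± 53.6 at ZT0 (n = 3).

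Apoe and Apoc1 were among the most abundant of the 10. Apoe was at 13032, 12556.5 and 13443 CPM in the ZT0 libraries, 12429 and 15489 in those of ZT6, 4770, 10500.0 and 11519 in those of ZT12, and 10235 and 12412 in those of ZT18. ZT12A was the lowest by a wide gap, and the fold change from ZT0 to ZT12 was -0.54 ± 0.34 (log2, SE; adjusted p = 0.49 by edgeR). Apoc1 was at 19760 CPM in ZT0A and 18406 in ZT6B and between 9165 and 13528 in the other 8 libraries.

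**Figure D4:**
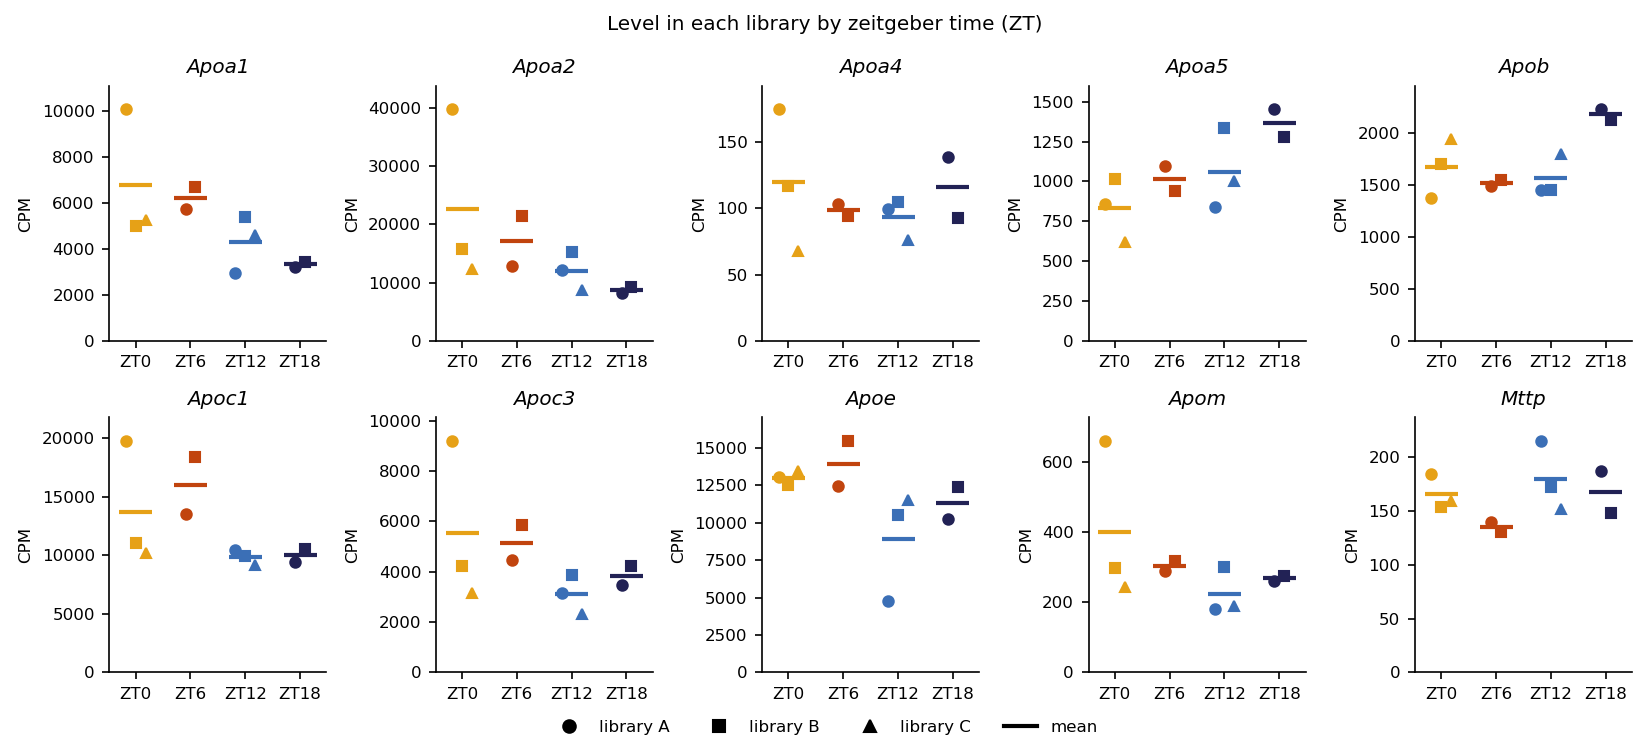
Level of each gene in CPM (vertical axes, from 0) in each of the 10 libraries by zeitgeber time, with marker shape for the library letter and a bar for the group mean. Library A at ZT0 stands above B and C for Apoa1, Apoa2, Apoa4, Apoc1, Apoc3, Apom and Mttp, and not for Apoa5, Apob or Apoe.

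ZT0A stood above both other ZT0 libraries for the 5 genes with the shortest transcripts, for Apoa4 and for Mttp. The longest coding transcript in GENCODE M21 is 518 bases for Apoa2, 532 for Apoc1, 709 for Apoc3, 1013 for Apom and 1035 for Apoa1. ZT0A exceeded the mean of ZT0B and ZT0C by 1.51, 0.90, 1.33, 1.29 and 0.97 for these genes, in log2(CPM + 1). For the 5 genes with longer transcripts it differed by 0.00 for Apoe (1408 bases), 0.97 for Apoa4 (1815), 0.12 for Apoa5 (2515), 0.24 for Mttp (3963) and -0.41 for Apob (13934). Among other genes at 100 CPM or more, the median was 0.54 for 214 genes with transcripts under 1100 bases and -0.08 for 950 longer ones, so other short transcripts were also higher in this library. The same split gave medians of -0.34 and -0.04 for ZT12 against ZT0, and -0.22 and 0.03 for ZT18 against ZT6. For the 10 genes the medians were -0.83 (short) and -0.09 (long) for ZT12 against ZT0, and -0.68 and 0.31 for ZT18 against ZT6. For the zones the split gave -0.10 and -0.01 among other genes, and 0.50 and 0.17 for the 10 genes, periportal minus pericentral. Whether transcript length plays a part in the time differences was not tested. The 1100-base limit was set after these values had been seen.

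Apoa1 was detected in fewer cells of ZT12A, ZT18A and ZT18B than of the other libraries. With each cell thinned to 1000 UMIs, 30.8% of pericentral, 54.0% of middle and 61.0% of periportal cells of ZT12A had an Apoa1 UMI. In ZT18A these shares were 51.8%, 58.5% and 61.4%, and in ZT18B 64.1%, 74.0% and 68.4%. In the other 7 libraries they were between 88.1% and 99.2% in every zone. ZT12B and ZT12C were among those 7. As for Apoa4, no share in cells lacking the gene could be set beside these, and the part of free RNA in them was not tested. The median cell of ZT12A held 0.570 Apoa1 UMIs per 1000, with quartiles of 0 and 2.97, while the median cell of ZT12C held 4.74. The ratio of variance to mean of the thinned counts was 5.44 to 7.39 in the zones of ZT12A, 4.27 to 7.37 in those of ZT18A and 3.51 to 5.50 in those of ZT18B. In the other 7 libraries it was 1.78 (ZT12C, pericentral) to 5.02 (ZT0B, middle), so by this ratio the libraries overlapped.

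Ttr, a hepatocyte marker encoding the thyroxine carrier transthyretin, was low in the same libraries. Its median was 2.17 UMIs per 1000 in ZT12A, 3.27 in ZT18A and 5.37 in ZT18B, against 6.64 to 17.7 in the other 7 libraries. Alb, another hepatocyte marker, had medians of 14.85 to 42.9 over the 10 libraries. As a sum per library, a measure unlike the cell medians, the 7 hepatocyte markers (Alb and Ttr among them) were not low at ZT18. They summed to 58420.5 to 67490.5 CPM at ZT18, 58805 to 59182 at ZT6, 39277 to 63690 at ZT12 and 50325 to 70108 at ZT0. The median cell held 1.07 to 2.02 Apob UMIs per 1000 in the 10 libraries. Across cells, Apoa1 correlated with the cell's UMI count at r of 0.33 in ZT12A, 0.47 in ZT18A and 0.40 in ZT18B, and with its mitochondrial share at -0.28, -0.03 and 0.04. These are descriptions over the cells of a library, with shared denominators and no p. Apoa1 and Apoa2 correlated across the cells of a zone at a median r of 0.54 over 30 library zones (0.05 to 0.75), Apoa2 and Apoe at 0.49 (-0.14 to 0.71), and Apoc3 and Apoe at 0.16 (-0.01 to 0.50).

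**Figure D5:**
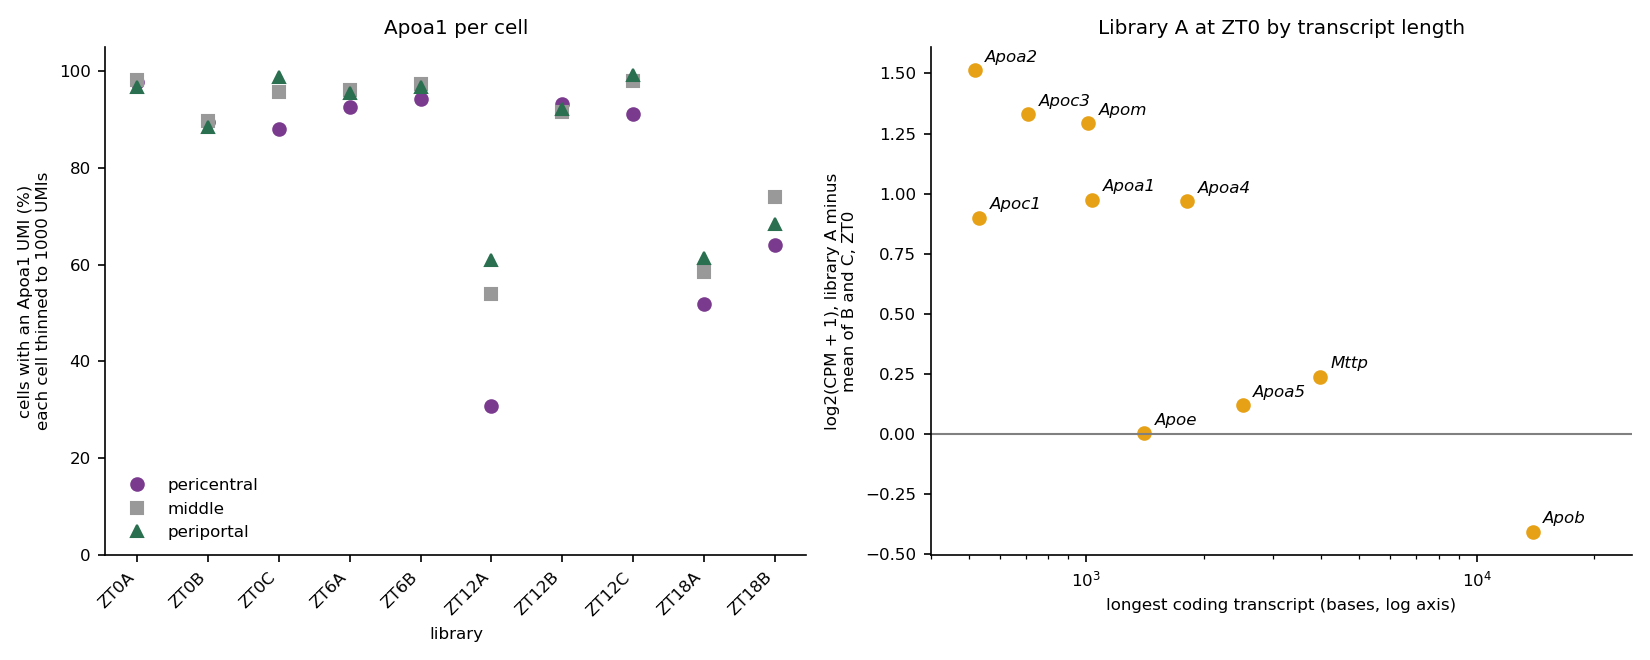
Left, share of cells with at least 1 Apoa1 UMI after thinning to 1000 UMIs (vertical axis, percent) in each library, by zone. Right, difference in log2(CPM + 1) between library A and the mean of B and C at ZT0 against the longest coding transcript (log axis) for the 10 genes. ZT12A, ZT18A and ZT18B lie between 30.8% and 74.0%, and the 5 genes under 1100 bases lie between 0.90 and 1.51.

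The genes most like each of the 10 over the 30 library zones were taken by Pearson correlation of log2(CPM + 1) among 4323 genes at 20 CPM or more. The points share libraries and depth, so r is a description. Apoa4 was most like Gas2 (r = 0.96), Aldh1b1 (0.93) and Cdh1 (0.92), which were higher periportally by 2.02, 4.84 and 4.22 (log2). Apoa1 and Apom were both most like Orm1, an acute-phase protein gene (r = 0.91 and 0.97). Apoa5 was most like Fbp1 (r = 0.88), a gluconeogenic enzyme gene, then Aox3 and Acaca. Apoc3 was most like Cox7b (0.97), Cox5b and Cox6c, subunits of cytochrome oxidase. Apoa2 was most like Atox1 (0.92), Apoc1 most like Ubl5 (0.91), Apob most like Mt-nd2 (0.89) and Mttp most like Sh3bgrl (0.82).

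The rest of the pathway was read from lists of related genes. Of 14 genes of particle assembly and secretion, 13 were tested, 3 were higher periportally (13% of all genes) and 4 pericentrally (14.1%), and 0 were rhythmic by edgeR (5.14%). Among the 4 times 1 of the 13 differed by edgeR (6.58% of all genes), which was Mia2 (adjusted p = 0.048 by edgeR). Between ZT18 and ZT6 1 of the 13 differed (3.79% of all genes), which was Sec23b, a coat protein gene (adjusted p = 0.029 by edgeR). Both were named after their values were seen, and other lists held such calls too. Tm6sf2, which promotes lipidation of very-low-density lipoprotein, was at 18.9 ± 5.23 CPM periportally and 9.74 ± 4.63 pericentrally (SD, n = 10), a difference of 0.88 (log2). Sort1, a sorting receptor for Apob, and Mia2, a cargo receptor of the endoplasmic reticulum, were higher pericentrally, at -0.69 and -0.53. The 4 genes of Apob mRNA editing were tested and 0 passed in either test by edgeR. Of 12 other apolipoprotein genes 10 were tested, and 4 were higher periportally (13% of all genes) and 2 pericentrally (14.1%), with Apof at 0.40, Apon at 0.34 and Clu at 0.33. In uptake, 6 of 7 tested genes were higher periportally (13% of all genes) and 0 pericentrally (14.1%), with Sdc1, a heparan sulfate proteoglycan that binds remnants, at 0.91, Lsr, a lipolysis-stimulated receptor, at 0.78 and Scarb1, the high-density lipoprotein receptor, at 0.69.

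Of 9 tested genes of particle remodelling and sterol export, 2 were higher periportally (13% of all genes) and 5 pericentrally (14.1%). Pltp, the phospholipid transfer protein, was at 19.5 ± 11.6 CPM pericentrally and 4.57 ± 2.41 periportally, a difference of -2.08, and Pon1, the paraoxonase of high-density lipoprotein, was at 456 ± 97.2 and 153 ± 56.2, a difference of -1.58. This list held 3 rhythmic genes by edgeR, beside 5.14% of all genes. Abcg8, whose protein exports sterols into bile as a pair with Abcg5, was at 24.04 ± 6.83 CPM in the ZT0 libraries, 60.2 ± 4.03 in those of ZT6, 62.5 ± 9.43 in those of ZT12, and 13.0 ± 2.66 in those of ZT18 (adjusted p = 0.0020 by edgeR). Abcg5 was at 11.9 ± 0.387, 38.8 ± 1.18, 38.3 ± 3.75 and 13.2 ± 3.09 CPM at these times (adjusted p = 0.00011 by edgeR). Lipg, endothelial lipase, was highest at ZT12, at 27.1 ± 12.7 CPM (adjusted p = 0.029 by edgeR).

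Of 16 transcription factors known to act on these genes, all tested, 5 were higher periportally (13% of all genes), 1 pericentrally (14.1%) and 3 were rhythmic (5.14%) by edgeR. Ppargc1a, a coactivator of fasting metabolism, was both, with 26.4 ± 11.5 CPM periportally and 7.70 ± 3.24 pericentrally (1.73, log2) and a fitted peak at ZT 10.1. Nr1d1, which encodes the clock repressor REV-ERBα, was at 31.5 ± 8.77 CPM at ZT6 and 0.304 ± 0.027 at ZT18, and Foxo1 at 72.5 ± 13.2 CPM at ZT12 and 29.4 to 31.7 at the other times.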

How the data were processed

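The authors deposited 1 table of raw UMI counts per library, and per the submitters' processing notes they used Cell Ranger with the builds mm10 and hg19. The Cell Ranger version, the annotation and the cell filters are not given in the sources used here. Cells carry running numbers in place of barcode sequences, so barcodes shared between libraries could not be counted. Members and lists were chosen with earlier results of these data known.

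Counts were summed per library, or per library and zone, genes under a mean of 3 CPM were removed, and TMM scaling was applied. Tests used edgeR 4.0.16 (quasi-likelihood) in R 4.3.3 with adjustment over all genes tested and a threshold of 0.05. DESeq2 1.42.0 was an alternative. A rhythm was a cosine and sine of 24 h. The scripts were tested on simulated data. Plots and per-library differences used log2(CPM + 1). For likeness to each of the 10 genes, the 3 most correlated genes were ranked, and from each list the 3 largest effects past the threshold were named.

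Libraries of the same letter at ZT0 and ZT12 deviated together from their group means (r = 0.24 for A, 0.43 for B and 0.49 for C), and each such pair shared the number of its sample index in the labels. Other pairs of the same letter gave -0.04 to 0.11. The index number of the B pair, 7, was also that of ZT6A and ZT6B. Those 2 libraries gave r of 0.02 and -0.02 with ZT0B, and of -0.04 and 0.04 with ZT12B. As the only 2 libraries of ZT6, their deviations from the group mean mirror each other, and whatever both share is removed. These r values therefore cannot show whether the index number plays a part. The ZT18 libraries had an index number of their own, so that number and the time cannot be told apart. No pair of libraries of a group was a copy. No doublet caller was run and all cells were kept. Whether doublets had been removed earlier is not given in the sources used here, and an alternative dropped, per library, the top 5% of cells by UMI total. Others left out libraries or landmarks and changed the scaling, the filter, the zones or the tool.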

Additional observations from a re-analysis of the deposited data

How the results depend on the processing

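Of the 9 genes that differed between the outer zones, 7 to 9 passed in the 24 alternatives, with 7 when libraries were scaled by size alone and 8 without the 5% of cells with the most UMIs, and 8 to 9 passed when 1 library was left out. The counts of 0 for the time tests were 0 under every alternative tried, except that with DESeq2 1 gene (Apoa2) differed among the 4 times. In that setting 783 of 8908 genes did. With no filter on low counts 1 gene (Apoa1) passed the middle-zone test and 1 (Apoc3) the zone-dependent rhythm, and with narrower outer zones (the end 20% of the order on each side) 1 gene (Apoa5) passed the middle-zone test. The cause of these 4 changes was not tested. Leaving out each library in turn gave 0 genes in every other test. With the replicate letter as a block, pairing libraries across times, 0 of the 10 genes passed in each of the 4 time tests, and the calls among all genes rose from 458 to 749 for the rhythm, 586 to 989 for any difference, 306 to 504 for ZT12 against ZT0 and 338 to 730 for ZT18 against ZT6.

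Signs turned only among values that had not passed. For Mttp between zones, the difference became 0.0089 at a minimum of 20 CPM, 0.068 without ZT0A and ZT12A together and 0.030 with narrower outer zones, and ran from -0.035 to 0.039 with each library left out (above 0 without ZT0A, ZT6B or ZT12A). From ZT0 to ZT12, Apob became 0.046 with library size alone. With each library left out, Apob ran from -0.22 to 0.028 (above 0 without ZT0C), Apoa4 from -0.64 to 0.027 (above 0 without ZT0A) and Mttp from -0.030 to 0.21 (below 0 without ZT12A). From ZT6 to ZT18, Apoa4 ran from -0.082 to 0.49 (below 0 without ZT18A). No value could be had for ZT18 against ZT6 without the ZT18 libraries, or with the index number as a block. Depth limits Apoa4 most: its pericentral level rests on 12 UMIs in ZT12C and on 24 in ZT12A.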
